A study of Mus musculus with 6 samples.

Results

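The genes described here are the pseudogenes of mouse cytosolic ribosomal protein genes and the parent genes they were copied from. A member had a GENCODE M21 symbol made of a ribosomal protein gene name and the ending -ps with or without a number, was annotated as a pseudogene, and reached 10 estimated reads in at least 3 of the 6 libraries; Gm8210, a copy of Rpl29, was added by name. Of 284 such genes in the tables, 151 were members, and they belonged to 53 parents among the 53458 genes measured. Members were chosen by their reads in these same 6 libraries, and Gm8210 for its genotype difference, so that difference of Gm8210 is described with no test.

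RNA was sequenced from leukemic blasts sorted out of mouse bone marrow, with 3 libraries of G643W blasts (Cebpa-/p30; Asxl1G643W/G643W) and 3 libraries of WT blasts (Cebpa-/p30; Asxl1WT). Both groups thus carried a null Cebpa allele and a p30 allele, which makes the short form of the myeloid transcription factor C/EBPα, and they differed in Asxl1, a chromatin regulator, which was G643W on both alleles in the first group. The strain was C57/BL6, the mice had received transplants, and blasts were sorted as CD45.2+, Mac1low and Gr1low cells without Ter119, B220 or CD3. The labels give no age and do not say whether libraries of a genotype trace to separate leukemias, so p-values reflect only the spread among these libraries, which may be partly technical. The comparison asks how the Asxl1 genotypes differ in the RNA assigned to these pseudogenes and to their parents.

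Ribosomal proteins are the protein parts of the small (Rps genes) and large (Rpl genes) ribosomal subunits, and their messenger RNAs are among the most abundant in growing cells. A processed pseudogene arises when such a messenger RNA is copied into DNA and inserted elsewhere in the genome, without introns, and mammalian ribosomal protein genes have left many of these copies. Because young copies differ from the parent at few bases, a short read may fit both, and the program used here, Salmon, divides such reads between them with a statistical model. A value of a pseudogene is therefore an estimate of reads assigned to it, which a single base can move.

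The sequences shown here are those of Rpl34 and of Rpl29, the parent of Gm8210, beside their copies. Rpl34-ps1 and Gm8210 differ from their parents at very few bases, and Rpl34-ps2, with more differences, is shown beside them. The part of these bases in the values given below was not tested. The coding sequence of Rpl34 (354 bases; gene at chr3:130726831-130730398, minus strand, GRCm38) differed from Rpl34-ps1 at 2 bases, T132C and C318G, where the first letter is the parent's base, the number counts from 1 at the A of the parent's start codon, and the last letter is the copy's base. Rpl34-ps2 differed from Rpl34 at 10 bases, including both of these. Positions 111 to 340 of the coding sequence follow for the parent, for Rpl34-ps1 (chr6:71124720-71124949, plus strand) and for Rpl34-ps2 (chr13:116153891-116154120, plus strand), with the bases in capitals where a copy differs from the parent (in the parent, where either copy does).
Rpl34: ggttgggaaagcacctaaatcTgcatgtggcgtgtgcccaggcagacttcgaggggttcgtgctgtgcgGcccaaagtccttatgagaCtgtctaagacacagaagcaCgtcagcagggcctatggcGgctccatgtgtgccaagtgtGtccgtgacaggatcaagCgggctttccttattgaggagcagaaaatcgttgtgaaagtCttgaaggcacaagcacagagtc
Rpl34-ps1: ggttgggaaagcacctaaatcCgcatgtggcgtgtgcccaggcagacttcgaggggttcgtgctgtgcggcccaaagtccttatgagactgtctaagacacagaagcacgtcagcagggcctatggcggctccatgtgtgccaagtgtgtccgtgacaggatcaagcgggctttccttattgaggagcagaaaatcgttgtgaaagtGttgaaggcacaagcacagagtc
Rpl34-ps2: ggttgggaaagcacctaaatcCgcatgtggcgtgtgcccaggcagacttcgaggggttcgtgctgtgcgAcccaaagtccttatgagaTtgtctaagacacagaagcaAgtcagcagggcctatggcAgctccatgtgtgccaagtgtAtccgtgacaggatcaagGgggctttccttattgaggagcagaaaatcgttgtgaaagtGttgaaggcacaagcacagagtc

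The coding sequence of Rpl29 (483 bases; gene at chr9:106429454-106431568, plus strand, GRCm38) differed from Gm8210 at 3 bases, C72A, C300T and T423C. Positions 61 to 310, which hold the first 2 of these in capitals, follow for the parent and for Gm8210 (chr1:43189216-43189465, plus strand). All sequences are GENCODE M21 transcript sequences.
Rpl29: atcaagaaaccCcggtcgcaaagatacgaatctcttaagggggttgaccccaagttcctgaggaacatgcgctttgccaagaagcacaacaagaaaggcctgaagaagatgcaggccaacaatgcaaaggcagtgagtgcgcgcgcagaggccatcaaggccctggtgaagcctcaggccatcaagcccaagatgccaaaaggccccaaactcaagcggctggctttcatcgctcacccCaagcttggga
Gm8210: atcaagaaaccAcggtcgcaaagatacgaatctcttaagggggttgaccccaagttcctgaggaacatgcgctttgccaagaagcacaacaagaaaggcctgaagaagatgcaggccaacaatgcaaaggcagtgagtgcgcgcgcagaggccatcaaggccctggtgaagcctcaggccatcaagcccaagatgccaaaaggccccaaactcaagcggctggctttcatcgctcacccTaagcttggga

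Between Rpl34 and Rpl34-ps1, 80.9% of the 31-base stretches of the copy were also in a Rpl34 transcript, and none of its 324 stretches was found in Rpl34-ps1 alone. Gm8210 shared 79.5% of its 453 stretches with Rpl29 and had 16 found in no other gene. Rps2-ps10, the copy of Rps2 with the largest genotype difference, differed at 5 bases of the parent's 882-base coding sequence, shared 84.3% of its stretches with Rps2 and had none of its own.

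Most members had somewhat lower values in G643W blasts, as their parents had, while 4 copies had values many times higher there. Of the 149 members tested apart from Gm8210, 1 was called higher in G643W blasts and 0 lower (edgeR quasi-likelihood test over 20654 genes, adjusted p under 0.05), where 0.0533% of all genes tested were called higher and 0.0678% lower. At an unadjusted p under 0.05 there were 41 of the 149, of which 38 were lower, where 5.78% of all genes were lower at that level. DESeq2 called 3 members higher and 2 lower, where it called 0.794% of all genes higher and 1.28% lower. Of the 2 lower, Rpl10-ps5 met the read minimum through WT libraries alone. The 149 include 8 such members and 1, Rpl34-ps2, that met it through G643W libraries alone. Any call of Rpl34-ps2 as higher is therefore a description. Of the 53 parents, 0 were called by edgeR, 30 had an unadjusted p under 0.05, and DESeq2 called 2, Rpl29 and Rpl34, both lower. The log2 fold change (G643W over WT) was negative in 141 of the 149 members and in all 53 parents, against 50.8% of all genes. Its median was -0.85 over the members, -0.87 over the parents and -0.01 over all genes.

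**Figure D1:**
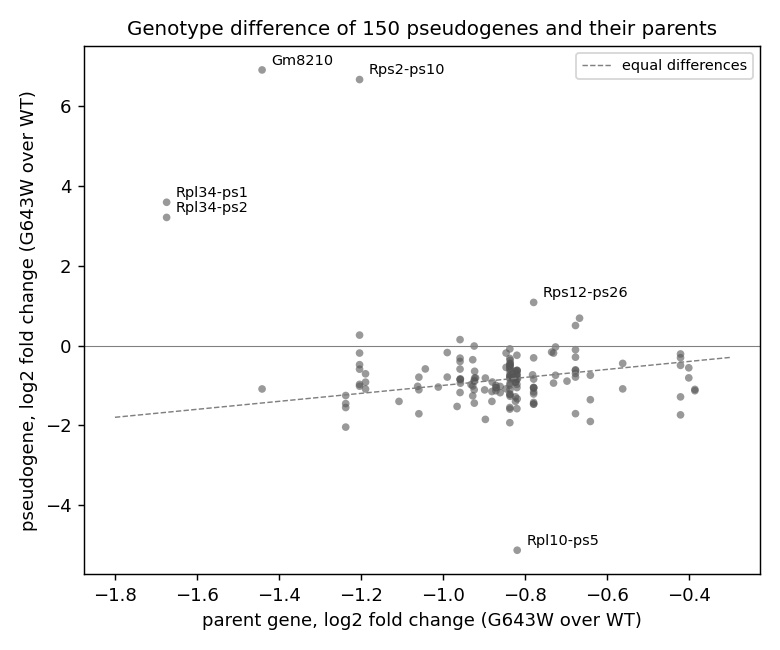
Log2 fold change (G643W over WT) of each of the 150 tested pseudogenes (vertical axis, Gm8210 included) against that of its parent (horizontal axis), with a dashed line at equal differences. All parents lie below 0, most pseudogenes lie around the line, and Gm8210, Rps2-ps10, Rpl34-ps1 and Rpl34-ps2 lie between 3.21 and 6.91 above 0.

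Rps2-ps10 was the member called higher. It is a transcribed processed pseudogene (ENSMUSG00000091957; chr18:61259008-61259972, minus strand, GRCm38) that lies in an intron of Pde6a, on the opposite strand. Its parent Rps2 encodes a small-subunit protein. The level of Rps2-ps10 was 212.5, 71.6 and 135.7 CPM (estimated reads scaled to the library total with TMM factors) in G643W libraries 1 to 3, against 1.43, 1.93 and 0.77 CPM in WT libraries 1 to 3. Every G643W library lay far above every WT library. The means were 139.9 ± 70.5 CPM in G643W and 1.38 ± 0.58 CPM in WT blasts (SD, n = 3 each), with a log2 fold change of 6.67 ± 0.59 (SE, edgeR adjusted p = 0.0234). The call was lost without WT library 1 (edgeR adjusted p = 0.143), WT library 2 (0.175) or G643W library 3 (0.116) and with length-scaled counts (0.062), while the log2 fold change stayed between 6.319 and 7.005 over the 6 fits that leave out 1 library. The host gene Pde6a had a log2 fold change of -0.27 ± 0.63 (edgeR adjusted p = 0.878).

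Rps2 itself had 1178, 384 and 664 CPM in G643W libraries, against 1470.0, 1988 and 1669 CPM in WT libraries, with no overlap and a log2 fold change of -1.20 ± 0.43 that did not pass (edgeR adjusted p = 0.493). Scaled to length, Rps2-ps10 was at 164.8, 49.6 and 106.2 TPM in G643W libraries, where Rps2 was at 832, 248 and 482 TPM, and at 0.94, 1.17 and 0.52 TPM in WT libraries, where Rps2 was at 938, 1150.3 and 1075 TPM. The copy thus remained below its parent in all 6 libraries on the TPM scale. The other 6 tested members of the Rps2 family had log2 fold changes between -1.02 and 0.26. Among the 47 other copies of Rps2 found by sequence, unnamed ones included, 31 were tested, with log2 fold changes between -1.35 (Gm11599) and 0.79 (Gm12366), and none had more than 7.14 CPM in any library.

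Rpl34-ps1, a processed pseudogene outside any other annotated gene (ENSMUSG00000068396; chr6:71124610-71124963, plus strand), had 298.3, 171.6 and 178.6 CPM in G643W libraries, against 26.8, 20.3 and 6.72 CPM in WT libraries. The lowest G643W library was above the highest WT library. The log2 fold change was 3.59 ± 0.55, which did not pass over all genes with edgeR (adjusted p = 0.128) and did with DESeq2 (adjusted p = 4.46e-08). The parent Rpl34, which encodes a large-subunit protein, had 310.8, 186.9 and 215.2 CPM in G643W libraries, against 659, 1001 and 615 CPM in WT libraries. This was the lowest log2 fold change of any parent, -1.67 ± 0.32 (edgeR adjusted p = 0.259). On the TPM scale Rpl34-ps1 was above Rpl34 in each G643W library, with 1343, 651 and 754 TPM for the copy and 656, 344 and 446 TPM for the parent. In WT libraries the copy was at 112.5, 74.3 and 27.1 TPM and the parent at 1302, 1795 and 1213 TPM.

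Rpl34-ps2 (ENSMUSG00000061669; chr13:116153781-116154134, plus strand) was a low-level member with the same direction. It had 46, 23 and 27 estimated reads in G643W libraries and 4, 3 and 3 in WT libraries, or 0.67, 0.26 and 0.36 CPM against 0.053, 0.042 and 0.040 CPM. Its log2 fold change was 3.21 ± 0.59 (edgeR adjusted p = 0.236), and it was the 1 member that reached the 10-read minimum in G643W libraries alone, so that it was counted through the group in which it is high.

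Gm8210 (ENSMUSG00000094497; chr1:43189156-43189638, plus strand) lies in an intron of Fhl2, a LIM-domain gene on the opposite strand. It had 168.4, 97.6 and 113.6 CPM in G643W libraries, against 0.93, 1.40 and 0.82 CPM in WT libraries, a log2 fold change of 6.91 given as a description, since the gene was named with this difference known. The parent Rpl29, a large-subunit protein gene, had 311.9, 172.6 and 211.2 CPM in G643W libraries, against 621, 732 and 535 CPM in WT libraries (log2 fold change -1.44 ± 0.30, edgeR adjusted p = 0.315). The host gene Fhl2 had 5.39, 1.76 and 2.41 CPM in G643W libraries, against 0.053, 0 and 0.013 CPM in WT libraries (edgeR adjusted p = 0.128). No source used here states a strand setting, so reads of Gm8210 and of the Fhl2 intron around it cannot be told apart by strand.

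The other member of the Rpl29 family, Rpl29-ps2, had 0.23, 0.16 and 0.16 CPM in G643W libraries, against 0.39, 0.45 and 0.33 CPM in WT libraries. Its log2 fold change of -1.09 ± 0.44 (edgeR adjusted p = 0.509) was in the direction of the parent and opposite to that of Gm8210.

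In these 3 families the sum of parent and copies had a smaller log2 fold change than either the parent or the copy. The Rpl29 family summed to 480.5, 269.3 and 324.3 CPM in G643W libraries, against 623, 737 and 537 CPM in WT libraries, a log2 fold change of -0.82 ± 0.29 (edgeR adjusted p = 0.503), where Rpl29 alone gave -1.44. The Rpl34 family summed to 609.9, 357 and 393 CPM in G643W libraries, against 687, 1025 and 622 CPM in WT libraries (-0.78 ± 0.33, edgeR adjusted p = 0.523), where Rpl34 alone gave -1.67. The Rps2 family gave -0.96 ± 0.43 (edgeR adjusted p = 0.533), where Rps2 alone gave -1.20. In each of the 3 families all G643W sums were still under all WT sums.

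**Figure D2:**
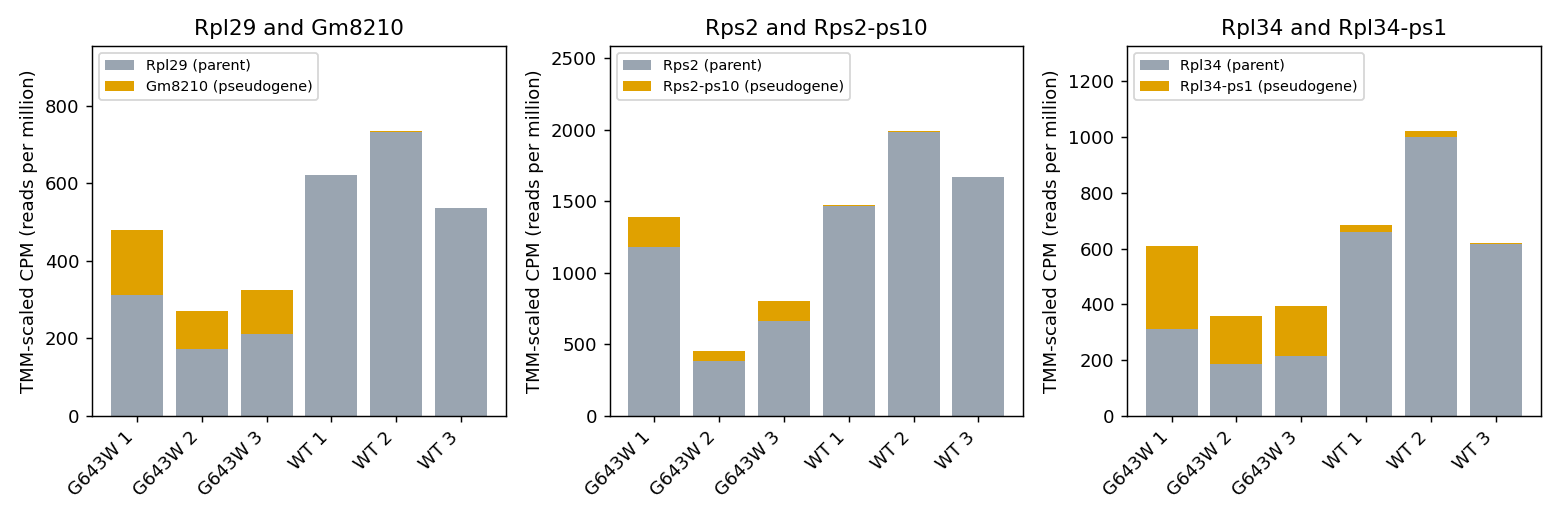
Stacked bars of TMM-scaled CPM per library for 3 parents (grey) and the copy with the largest difference (yellow), with G643W libraries left of WT libraries and all bars starting at 0. The copies make up a visible part of the bar in the G643W libraries and little or none of it in the WT libraries, and all 3 G643W totals lie below the lowest WT total.

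Across all 53 families, summed sets of a parent and its members, 0 were called in either direction (edgeR adjusted p under 0.05). Of the 20504 features of that table, 0.078% were called. DESeq2 called 0 families too. At an unadjusted edgeR p under 0.05 there were 29 families, and the share of all features at that level was not computed. All 53 had a negative log2 fold change, between -1.25 and -0.40 with a median of -0.85. The Rps6 family gave the lowest value and the Rpl30 family the highest. In 33 of the 53, all G643W values were under all WT values, against 8.72% of the features of that table. When families were instead collected by sequence (at least 90% identity over at least 50% of a parent's coding sequence, unnamed copies included, a grouping chosen after seeing the data), the log2 fold changes were -0.81 for Rpl29 with 59 genes, -0.79 for Rpl34 with 11 genes and -0.96 for Rps2 with 49 genes.

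The level of a copy relative to its parent differed between genotypes in few members. The log2 ratio of pseudogene to parent CPM (prior count 2, not scaled for length) was compared between genotypes with limma over 229 pairs, which include 76 pseudogenes of other gene families. Of the 149 pairs apart from Gm8210, 3 were called higher in G643W blasts and 0 lower (limma adjusted p under 0.05). Of all 229 pairs, these 3 and Gm8210 included, 2.18% were called higher and 0% lower. Among the 76 pseudogenes of other gene families, 1 was called higher. Of the 3 members, Rpl34-ps2 met the read minimum through G643W libraries alone. At an unadjusted limma p under 0.05, 18 of the 149 were higher, Rpl34-ps2 among them, and 5 lower. The share of all 229 pairs at that level was not computed, so these counts are a description. In 135 of the 149 the difference was smaller than 1 log2 unit, with a median of 0.03, and 84 were positive and 65 negative.

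The 3 pairs called were Rps2-ps10, Rpl34-ps1 and Rpl34-ps2. For Rps2-ps10 the log2 ratio was -2.47, -2.42 and -2.29 in G643W libraries, against -9.98, -9.99 and -11.03 in WT libraries, a difference of 7.94 ± 0.33 (SE, limma adjusted p = 9.41e-05). For Rpl34-ps1 it was -0.06, -0.12 and -0.27 in G643W libraries, against -4.62, -5.62 and -6.51 in WT libraries, a difference of 5.43 ± 0.48 (limma adjusted p = 0.00247). For Rpl34-ps2 it was -8.80, -9.36 and -9.11 in G643W libraries, against -13.03, -13.83 and -13.18 in WT libraries, a difference of 4.26 ± 0.28 that is a description, since the copy was counted through the group in which it is high. The calls of Rps2-ps10 and Rpl34-ps1 held in each of the 11 alternatives run on the ratios, including those that leave out 1 library. Gm8210 is described without a test: its log2 ratio to Rpl29 was -0.89, -0.82 and -0.89 in G643W libraries, against -9.338, -9.002 and -9.299 in WT libraries.

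The ratios of these copies were close to each other within the G643W group although the levels were not. The 3 G643W libraries differed about as much in Rps2-ps10 (SD 70.5 on a mean of 139.9 CPM) as in Rps2 (SD 402.7 on a mean of 742.3 CPM), while the log2 ratio had an SD of 0.09. For Gm8210 the log2 ratio had an SD of 0.04 over the G643W libraries and 0.18 over the WT libraries, and for Rpl34-ps1 the SD was 0.11 over the G643W libraries and 0.95 over the WT libraries. As a share of the reads of copy and parent, Gm8210 held 35.1%, 36.1% and 35.0% in G643W libraries, against 0.149%, 0.190% and 0.155% in WT libraries. Rpl34-ps1 held 49.0%, 47.9% and 45.3% in G643W libraries, against 3.90%, 1.99% and 1.08% in WT libraries.

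**Figure D3:**
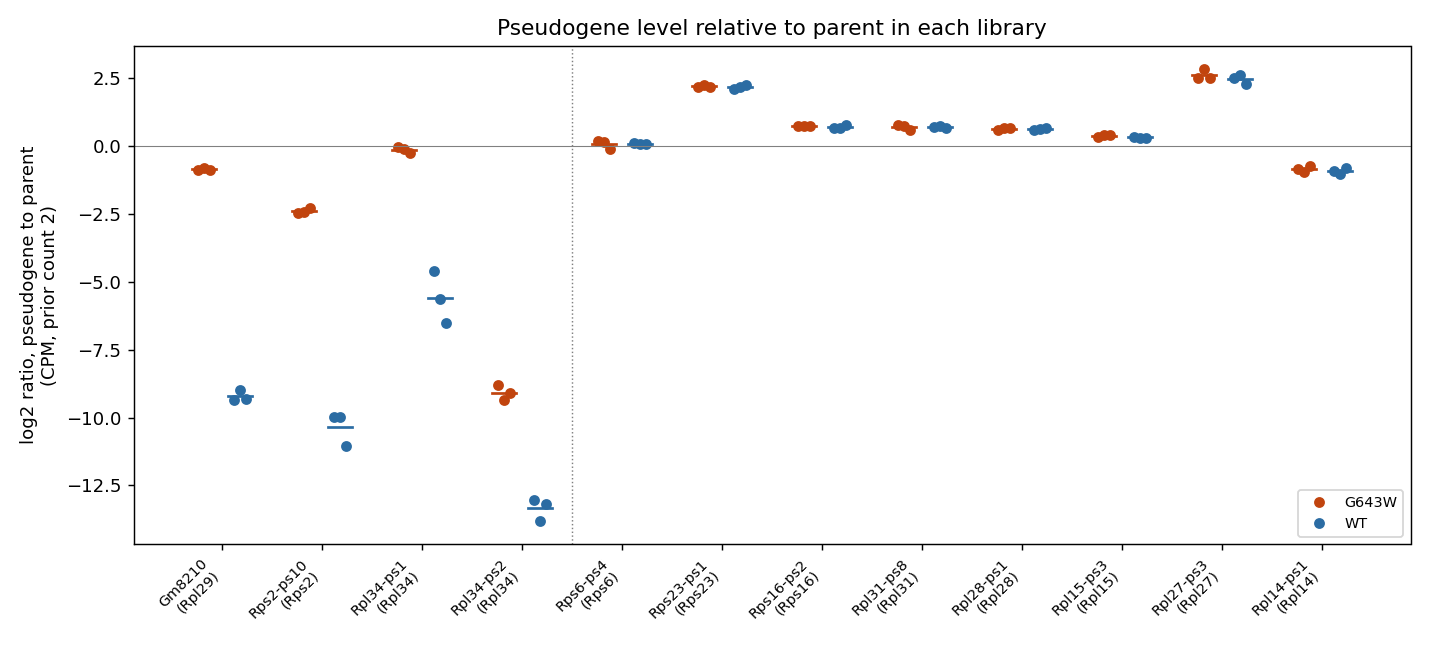
Log2 ratio of pseudogene to parent CPM in each library (points; short lines are group means), with G643W left of WT in each pair of columns and the parent in parentheses. The 4 pairs left of the dotted line differ by 4.26 to 8.34 log2 units between genotypes. In the 8 pairs with the highest pseudogene level to its right, the points of both genotypes lie at the same height. In all of these 8 but Rpl14-ps1, the whole copy lies inside a transcript of the parent. No read inside them can be told from a parent read by sequence, so their equal heights are no independent contrast.

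The bases that set these copies apart from their parents were not all their own. Of the 9 other copies of Rpl34 found by sequence, 8 also had the base of Rpl34-ps1 at T132C and 8 at C318G; apart from Rpl34-ps2, none of them had enough reads to be tested. Of the 57 other copies of Rpl29, 29 had the base of Gm8210 at C300T and 44 at T423C, but only 2 at C72A, namely 4931440P22Rik and Gm12447. 4931440P22Rik had 2.50, 2.69 and 1.95 CPM in G643W libraries, against 3.73, 2.08 and 2.32 CPM in WT libraries (log2 fold change -0.19, edgeR adjusted p = 0.872), and Gm12447 had under 0.1 CPM in all 6 libraries. Of the 57, 15 were tested, 11 of them had a negative log2 fold change and 0 were called. The highest was Gm3550 on chromosome 18, which had the base of Gm8210 at C300T and T423C but not at C72A. It had 4.65, 3.43 and 3.75 CPM in G643W libraries, against 0.72, 0.42 and 0.24 CPM in WT libraries, without overlap (log2 fold change 3.09, edgeR adjusted p = 0.216). The lowest was Gm7252, with 0.029, 0.022 and 0.040 CPM in G643W libraries, against 0.22, 0.24 and 0.33 CPM in WT libraries (log2 fold change -3.06, edgeR adjusted p = 0.224). Among the 47 other copies of Rps2, Rps2-ps13 on chromosome X had the base of Rps2-ps10 at all 5 positions. Rps2-ps13 had 0.28, 0.21 and 0.27 CPM in G643W libraries, against 0.026, 0.40 and 0.21 CPM in WT libraries, and the groups overlapped (log2 fold change 0.26 ± 0.82, edgeR adjusted p = 0.912).

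The 5 other members with a positive log2 fold change were small in size and none passed. Rps12-ps26 had 0.37, 0.25 and 0.63 CPM in G643W libraries, against 0.11, 0.27 and 0.21 CPM in WT libraries (log2 fold change 1.08 ± 0.58, edgeR adjusted p = 0.551). Rpl17-ps10 had 15.7, 8.15 and 17.0 CPM in G643W libraries, against 11.3, 10.8 and 6.73 CPM in WT libraries (0.50 ± 0.38, edgeR adjusted p = 0.631). Both overlapped between genotypes. Rps7-ps2 (0.68 ± 0.88), Rps2-ps13 and Rpl19-ps10 (0.15 ± 0.48) changed sign when 1 library was left out.

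Among the lower members, Rpl10-ps5 had the largest difference. This copy of Rpl10, a large-subunit protein gene, lies on chromosome 8 in an intron of Nup93, on the same strand (chr8:94222993-94223634). It had 0, 0 and 3 estimated reads in G643W libraries, against 34, 32 and 49 reads in WT libraries. The ratio of its reads per library total was 0.0238, G643W over WT, with an exact (Clopper-Pearson) 95% interval of 0.00484 to 0.0714 that covers counting error only. The edgeR adjusted p was 0.298, and the ratio to Rpl10 differed by -3.02 ± 0.54 log2 units. Rpl10-ps5 was 1 of 8 members that reached 10 reads in WT libraries alone. It was counted through the group in which it is high, so its difference is a description. The parent Rpl10 had a log2 fold change of -0.82 ± 0.35 (edgeR adjusted p = 0.511), and the host Nup93 one of -0.27 ± 0.29 (edgeR adjusted p = 0.718).

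Among the next lowest p-values of lower members were those of 8 copies of small- and large-subunit genes, none of which passed. Rpsa-ps2, a copy of the gene of a small-subunit protein also known as a laminin receptor, averaged 0.40 ± 0.16 CPM in G643W and 1.21 ± 0.03 CPM in WT blasts (log2 fold change -1.58 ± 0.47, edgeR adjusted p = 0.468). Rps6 encodes a small-subunit protein phosphorylated in growth factor signalling, and its copies among the 8 were Rps6-ps1, with 0.26, 0.25 and 0.30 CPM in G643W and 1.06, 0.64 and 0.52 CPM in WT libraries, and Rps6-ps2, which reached 10 reads in WT libraries alone, with 0.088, 0.045 and 0.040 CPM in G643W and 0.20, 0.35 and 0.17 CPM in WT libraries. Rps26-ps1, the most abundant of the 8, had 134.7, 61.6 and 96.0 CPM in G643W libraries, against 170.4, 246.9 and 176.9 CPM in WT libraries (-1.02 ± 0.33, edgeR adjusted p = 0.487), while Rps26 had a log2 fold change of -1.06. The remaining Rps12-ps9, Rps12-ps19, Rpl31-ps10 and Rpl35a-ps7 had log2 fold changes between -1.85 and -1.47 and under 1.4 CPM in every library. The 8 were picked by their low p-values, which favors separated groups, so their separation is a description. In all 8 of these copies the G643W values were under all WT values, as in 8.89% of all genes tested.

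That pattern was common among the members. All G643W values were under all WT values in 65 of the 149 members, and above them in 3, which were Rps2-ps10, Rpl34-ps1 and Rpl34-ps2. Over all genes tested, 8.89% were under and 7.05% above. Rpl34-ps2 met the read minimum through G643W libraries alone, and 8 members met it through WT libraries alone. Of the parents, 34 of 53 were under and 0 above. Of the 94 members apart from Gm8210 with at least 10 reads in all 6 libraries, for which neither genotype alone decided the minimum, 89 were negative with a median log2 fold change of -0.83. The 26 tested ribosomal protein genes that are no parent of a member were all negative too, with a median of -0.83. Of these, 15 had an unadjusted edgeR p under 0.05, where 5.78% of all genes were lower at that level. The 76 tested -ps pseudogenes of other gene families had a median of -0.20, with 29 positive and 47 negative and 1 called, Atp6v0c-ps2, a copy of a proton pump subunit gene (log2 fold change 2.57, edgeR adjusted p = 0.0346).

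Copies of the same parent lay on both sides of the parent's log2 fold change in 20 of the 34 families with at least 2 tested copies, all below it in 7 (Rps6 and Rpl5 among them) and all above it in 7 (Rps2 and Rpl34 among them), leaving Gm8210 out. The 11 copies of Rpl31 lay between -1.59 and -0.32 with a median of -0.83, where Rpl31 had -0.84. The 11 copies of Rps12 lay between -1.47 and 1.08 with a median of -1.07, where Rps12 had -0.78. The 9 copies of Rpsa had a median of -0.73 beside -0.82 for Rpsa, and the 8 copies of Rpl17 had -0.62 beside -0.68 for Rpl17. All 4 copies of Rps6 lay between -2.05 and -1.25, where Rps6 had -1.24 ± 0.41 (edgeR adjusted p = 0.488). In all 4 copies and in Rps6 no G643W library reached a WT library, as in 8.89% of all genes tested. The lowest copy, Rps6-ps2, was counted through its WT reads. Rps6-ps4 lies whole inside a Rps6 transcript, so it is no contrast independent of Rps6. The Rps2 family was the widest of those with at least 4 copies, with 5 negative copies and Rps2-ps10 at 6.67.

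Members were most abundant where least of their sequence was their own. The 19 members without a 31-base stretch of their own had a median of 203.6 CPM (mean over 6 libraries), and 15 of them were at 10 CPM or more. The 16 members with 1 to 31 such stretches had a median of 2.56 CPM, the 33 with 32 to 100 had 0.47 CPM, and the 83 with over 100 had 0.32 CPM, with none of the 83 above 3.00 CPM. Across the 151 members, Spearman's rho of the mean CPM with the number of own stretches was -0.48, and across the 147 with an alignment to the parent's coding sequence, rho with the identity was 0.61; members share libraries and parents, so these are descriptions. The median identity was 98.3%, the lowest was 83.5%, and 11 members were identical over the part aligned.

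**Figure D4:**
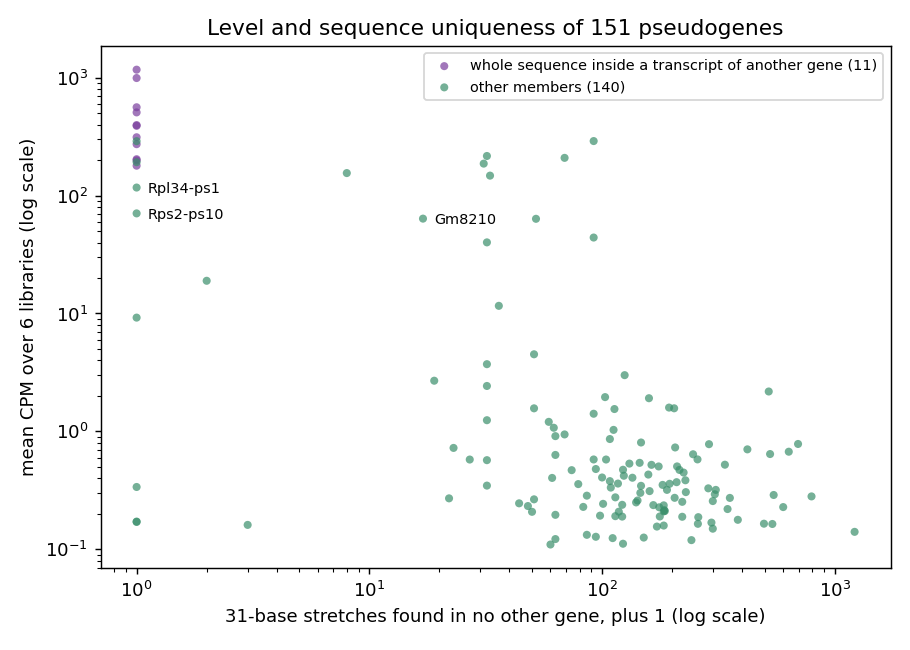
Mean CPM over 6 libraries (log scale) of each of the 151 members against the number of its 31-base stretches found in no other gene, plus 1 (log scale); purple points are the 11 members whose whole sequence lies inside a transcript of another gene. The purple points lie between 179.4 and 1170.2 CPM, and members with over 100 own stretches lie at 3.00 CPM or below.

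For 11 members, the whole transcript sequence was contained in a transcript of the parent, so that no read inside them could be told from a read of the parent by sequence. These were Rpl28-ps1, Rps16-ps2, Rpl15-ps3, Rpl31-ps8, Rps13-ps2, Rpl27-ps3, Rpl38-ps2, Rps6-ps4, Rpl10a-ps1, Rps23-ps1 and Rpl36a-ps2. They held from 19.1% to 87.8% of the reads of copy and parent, and their log2 ratio to the parent differed between genotypes by -0.11 to 0.16. Rps6-ps4, the member with the highest level, had 928, 483 and 662 CPM in G643W libraries, against 2308, 1676 and 963 CPM in WT libraries, and its log2 fold change of -1.25 ± 0.41 (edgeR adjusted p = 0.488) was close to that of Rps6. Rps23-ps1, a copy of a gene whose protein sits near the decoding site of the ribosome, held 81.8%, 82.7% and 81.9% of its pair's reads in G643W libraries, against 81.2%, 81.9% and 82.5% in WT libraries. Its level was 1017, 471 and 590 CPM in G643W libraries, against 1149, 1736 and 999.8 CPM in WT libraries, so the levels overlapped between genotypes, as did the shares. Rpl14-ps1, with 91 stretches of its own, was the most abundant member outside these 11, with 337.4, 100.4 and 194.4 CPM in G643W libraries, against 347.3, 447.4 and 314.4 CPM in WT libraries (log2 fold change -0.81 ± 0.43, edgeR adjusted p = 0.552).

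The 83 members with over 100 stretches of their own, whose reads are least shared, were low but had the same direction. Of these, 79 had a negative log2 fold change, with a median of -0.92. In 38 all G643W values were under all WT values, against 8.89% of all genes tested. In 1 they were above, against 7.05% of all genes tested. This was Rpl34-ps2, which met the read minimum through G643W libraries alone. The 83 also hold Rps6-ps2, their lowest at -2.05, which met it through WT libraries alone. The counts of lower members are thus partly set by the choice of members. Rps15a-ps5 was the most abundant of them, with 2.28, 1.57 and 2.37 CPM in G643W libraries, against 2.84, 5.42 and 3.51 CPM in WT libraries (log2 fold change -0.92 ± 0.43, edgeR adjusted p = 0.532). Rplp0-ps1, a copy of a stalk protein gene, had 1.92, 1.16 and 1.58 CPM in G643W libraries, against 2.38, 3.95 and 2.10 CPM in WT libraries (-0.86 ± 0.45, edgeR adjusted p = 0.548).

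By position, 93 members overlapped no other annotated gene, 50 lay in an intron (32 on the opposite strand, 18 on the same strand) and 8 overlapped an exon. The 5 members that overlapped an exon on the same strand were all copies of Rpl19 (Rpl19-ps1, Rpl19-ps6, Rpl19-ps10, Rpl19-ps11 and Rpl19-ps12), each with an annotated microRNA gene inside it. Their log2 fold changes lay between -1.18 and 0.15, beside -0.96 for Rpl19, and none had more than 2.69 CPM on average over the libraries. Reads of overlapping genes cannot be told apart there.

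The minimum of 10 reads also decided which genes were described. Just inside it were Rpl30-ps1, with 10.3, 13.8 and 0 estimated reads in G643W libraries and 6.76, 12.1 and 6.68 in WT libraries, and Rpl21-ps3, with 7.99, 4.20 and 10.8 in G643W and 10.4, 13.6 and 8.48 in WT libraries. Just outside were Rpl26-ps4, with 9.03, 6.02 and 4.01 reads in G643W and 8.02, 19.1 and 14.1 in WT libraries, and Rpl19-ps4, with 6.01, 8.59 and 9.02 in G643W and 10.9, 19.8 and 8.42 in WT libraries. Of the members, 106 averaged under 1 CPM and 27 averaged 10 CPM or more.

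Library totals ranged from 61167075 to 101189225 estimated reads. Asxl1 was at 13.7, 20.2 and 15.5 TPM in G643W libraries and at 6.95, 3.68 and 7.15 TPM in WT libraries, but a level does not show the G643W base, so it does not check the genotype labels. Markers of blasts and primary granules (7 genes, Kit, Cd34, Mpo, Elane, Ctsg, Prtn3 and Ptprc) were present in all libraries, at a sum of 2414 to 12498 CPM in G643W and 2737 to 9945 CPM in WT libraries. Ptprc alone gave 1077 of the 2414 CPM in G643W library 2. Cd34 had 119.8, 29.5 and 62.3 CPM in G643W libraries, against 243.3, 394.0 and 146.4 CPM in WT libraries, without overlap (log2 fold change -1.89, edgeR adjusted p = 0.477). The other genes of this list overlapped between genotypes. The 4 B cell markers summed to at most 38.4 CPM and the 3 T cell markers to at most 3.96 CPM. The 8 markers of maturing neutrophils summed to 9578, 126848 and 67562 CPM in G643W libraries, against 1433, 8871 and 47860.0 CPM in WT libraries. The 5 monocyte markers summed to 1152, 394 and 1003 CPM in G643W libraries, against 2921, 2794 and 1447 CPM in WT libraries, and the 4 erythroid markers to 5.67, 6.08 and 13.4 CPM in G643W libraries, against 3.75, 2.83 and 0.96 CPM in WT libraries, both without overlap. Sums of the 4 macrophage and of the 3 megakaryocyte markers overlapped between genotypes, and no gene of any of these lists was called (edgeR adjusted p under 0.05). The 53 parents held 4.43%, 1.74% and 2.47% of the reads in G643W libraries, against 5.08%, 6.62% and 4.20% in WT libraries, and the members held 0.854%, 0.349% and 0.484%, against 0.947%, 1.15% and 0.717%. The 3 libraries with the highest neutrophil sum, G643W 2, G643W 3 and WT 3, were thus those with the lowest share of parent reads; the part of these cells and of the monocytes and erythroid cells in the lower values of members and parents was not tested. Without G643W library 2, the medians were -0.68 over the members and -0.66 over the parents. In that fit 134 of the 150 members tested apart from Gm8210 and all 53 parents were negative. An unadjusted edgeR p under 0.05 was reached by 7 members in place of 41. The share of all genes at that level in that fit was not computed. Fewer cells with a high level and less RNA per cell cannot be told apart in sorted bulk samples.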

How the data were processed

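RNA of 6 libraries was sequenced after a TruSeq V2 preparation, per the labels' protocols. The authors deposited per-transcript tables of estimated counts and TPM from Salmon 0.12.0, made with bcl2fastq and the builds mm10 and GRCm38.p6 per the submitters' processing notes; no source used here gives Salmon's options, index or strand setting. Transcripts were matched to GENCODE M21 (GRCm38; coordinates counted from 1), and 112 unmatched ones, at most 0.0365% of a library's reads, were left out. The deposited estimated counts were summed per gene, rounded and filtered with filterByExpr (minimum count 10). After TMM scaling, the quasi-likelihood test of edgeR 4.0.16 in R 4.3.3 compared the genotypes, two-sided and without covariates, with Benjamini-Hochberg adjustment over all genes. CPM are TMM-scaled and means are given with SD. One member, Rpl7a-ps3, failed the filter. Family sums were tested the same way, and log2 ratios of pairs with limma 3.58.1. Alternatives were RLE or no scaling, no filter, length-scaled counts, DESeq2 1.42.0, limma on log2(TPM + 1) and log2(TPM + 0.1), other prior counts and TPM for the ratios, the replicate number as a block, and each library left out. Coding sequences of parents were aligned with BLAST+ 2.17.0, and 31-base stretches were compared on the transcript strand. The model fits were tested on simulated data.

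Members and lists were chosen with earlier results of these data known. The text names Gm8210, every member called, up to 10 more per direction with the lowest edgeR p, the 8 with the highest mean CPM, the 5 with the highest share of pair reads, and their parents; others named (Rpl29-ps2, Rpsa and Rps12 families, Rps15a-ps5, Rplp0-ps1, the Rpl19 copies, threshold cases, hosts, and copies found by sequence) were chosen after their values were seen. One gene that meets this rule is not reported here. Each library counted as 1 sample, since no pair agreed within sampling noise.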

Additional observations from a re-analysis of the deposited data

How the results depend on the processing

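The count of pseudogenes higher in G643W, 1 of 149 with edgeR, was 2 without a filter on low counts, 3 with DESeq2 and 0 with length-scaled counts, and ranged from 0 to 1 over the fits that leave out 1 library (0 without WT 1, WT 2 or G643W 3). The count of pseudogenes lower, 0 with edgeR, was 2 with DESeq2 (Rpl10-ps5 and Rpsa-ps2) and 1 with limma on log2(TPM + 0.1), where DESeq2 called 1.28% and that limma fit 0.116% of all genes lower. Rpl10-ps5 met the read minimum through WT libraries alone, so its value is a description. Rpl34-ps2 met it through G643W libraries alone, so any call of Rpl34-ps2 as higher is a description too. For parents lower, 0 with edgeR, DESeq2 called 2, Rpl29 and Rpl34. Among the ratios, 0 lower became 1 with a prior count of 0.5. No family count moved in any of the 15 alternatives. 3 small log2 fold changes turned sign: Rps2-ps13 to -0.27 and Rpl19-ps10 to -0.054 without WT 1, Rps7-ps2 to -0.17 without G643W 1, and Rpl19-ps10 to -0.046 without G643W 2; over all leave-one-out fits they ranged from -0.27 to 1.10 for Rps2-ps13, -0.054 to 0.38 for Rpl19-ps10 and -0.17 to 1.91 for Rps7-ps2, and the cause was not tested. Members with a negative value numbered from 133 to 141 and all 53 parents stayed negative in the 14 alternatives run on genes. The labels do not say whether replicate numbers pair the samples, and 3 libraries a group are too few to settle it. Deviations of same-numbered libraries correlated at 0.11, -0.16 and 0.18, and not every library correlated best with its own number. With the replicate block, 0 pseudogenes were called higher in the gene test (Rps2-ps10, edgeR adjusted p = 0.163), as were 0 of all 20654 genes in either direction. In that fit 20 members had an unadjusted edgeR p under 0.05, and the share of all genes at that level was not computed. The ratio calls of Rps2-ps10 and Rpl34-ps1 held. Depth limits the low members: 106 of 151 averaged under 1 CPM, and with 3 libraries a group an exact permutation test cannot go below p = 0.1.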
